A study of Mus musculus with 4 samples.

Results

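The Hedgehog reception machinery of prostate stroma was read at the RNA level from 9 genes: the receptors Ptch1 and Smo, the transcription factors Gli1, Gli2 and Gli3, the ligand-binding antagonist Hhip and the co-receptors Gas1, Boc and Cdon. The genes were chosen by name for their role in the pathway, with earlier results of these data known. All 9 were found among 25744 named genes, and 8 of them, all but Cdon, were among the 11271 genes abundant enough to be tested. The stroma came from adult C57BL/6 mice. Flow cytometry had selected Sca-1-positive cells without CD24, CD49f or lineage markers, from distal ducts (2 libraries) or proximal ducts (2 libraries). No treatment or mutation is given for either region, and the labels do not say whether animals were pooled or whether libraries came from separate animals. The p-values are therefore set by the variation among the 4 libraries, and that variation may be purely technical. Both regions carry the library numbers 2 and 3, and the libraries are called distal 2, distal 3, proximal 2 and proximal 3.

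In Hedgehog signalling, a secreted ligand binds Patched 1 (Ptch1), which otherwise holds the membrane protein Smoothened (Smo) inactive. Active Smo changes the processing of Gli2 and Gli3 at the primary cilium, and Gli1, Ptch1 and Hhip are themselves widely used response genes of the pathway. Gas1, Boc and Cdon help present ligand to Ptch1, while Hhip and Ptch1 bind ligand and limit its reach. In the prostate the ligands are known mainly from epithelium and the responding cells mainly from the surrounding mesenchyme.

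Ptch1 and Hhip were the 2 members whose region difference kept its sign in each alternative analysis that gave them a value, both with higher proximal values, and neither passed the test. Naming by span and length alone gave no value for Ptch1. The promoters of Ptch1 and Hhip are shown because of the kept sign. These analyses reuse the same 4 libraries, and 43.0% of all tested genes had a higher proximal value within both numbers. The sequences are the 250 bases before the annotated start in RefSeq (GRCm38.p6), 5′ to 3′ on the coding strand. Capitals mark the GC box GGGCGG or its reverse complement CCGCCC, a common element of promoters rich in CpG. Ptch1 is on the minus strand at chr13:63565736-63565985 and Hhip on the minus strand at chr8:80058009-80058258. The Ptch1 bases lie inside the span of the gene used for naming, 63508328 to 63573598. They precede the annotated RefSeq start and not the outer end of that span.
Ptch1: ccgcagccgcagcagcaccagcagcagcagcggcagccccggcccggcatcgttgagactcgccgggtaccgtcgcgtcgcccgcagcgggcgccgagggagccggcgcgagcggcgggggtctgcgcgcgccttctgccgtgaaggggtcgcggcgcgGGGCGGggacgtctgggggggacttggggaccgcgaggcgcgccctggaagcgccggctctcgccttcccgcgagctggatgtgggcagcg
Hhip: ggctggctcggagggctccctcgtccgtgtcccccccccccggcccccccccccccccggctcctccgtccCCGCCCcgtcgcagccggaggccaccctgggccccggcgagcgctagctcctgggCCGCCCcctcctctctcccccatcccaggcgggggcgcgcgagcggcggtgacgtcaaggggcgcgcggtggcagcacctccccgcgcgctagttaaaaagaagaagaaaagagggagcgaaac
RefSeq promoter windows of 300 bases, which add 50 bases after the start, were found for 7 of the 9 members. Gli1 and Boc had none. The Gli consensus GACCACCCA or its reverse complement TGGGTGGTC was in 0 of these 7 windows and in 0.253% of all 32851 windows. With so low a share, 0 of 7 does not set the members apart from other genes. It does not speak to Gli sites outside the windows. A GC box was in 5 of the 7, against 35.7% of all windows. The Ptch1 window had 76.3% G and C, more than 97.1% of all windows, and the Hhip window had 73.7%, more than 94.9% of all windows. A match in these windows is a description of letters and not a site of binding.

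Values are summed per gene in FPKM, a unit that divides fragments by the transcript's length and the library's mapped total. On this scale, which allows levels of different genes to be compared, the mean over the 4 libraries was 52.4 FPKM for Gas1, 21.9 for Boc, 18.5 for Smo, 15.8 for Gli1, 13.5 for Hhip, 11.6 for Ptch1, 3.52 for Gli3, 0.952 for Gli2 and 0.591 for Cdon. From Gas1 down to Ptch1 the ranges over libraries of neighbours in this order overlapped, so no neighbouring pair was separated beyond the spread. Further apart in the order, the lowest Boc value of 19.95 FPKM was above the highest values of Hhip (17.7) and Ptch1 (17.6). The summed Ptch1 values, 6.70 FPKM at the lowest, did not overlap Gli3, 4.86 FPKM at the highest. With either of the 2 Ptch1 transcript models alone, at 2.89 or 3.81 FPKM in its lowest library, Ptch1 and Gli3 overlapped. Gli3 and Gli2 overlapped, as did Gli2 and Cdon. The 6 more abundant members lay between percentile 58.4 (Ptch1) and percentile 89.1 (Gas1) of the mean level of all tested genes.

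**Figure D1:**
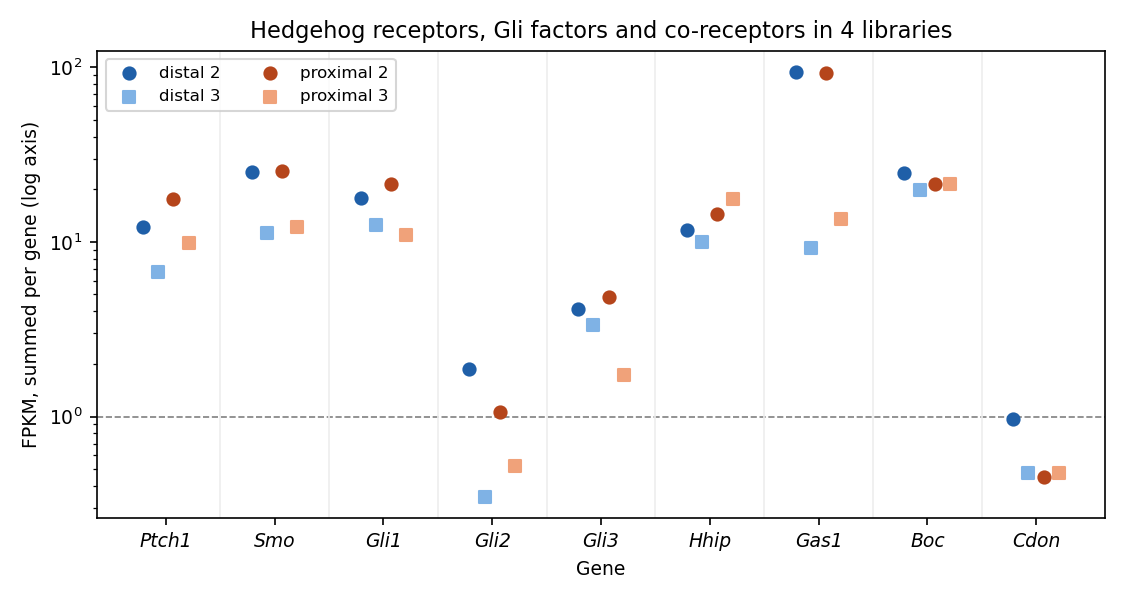
FPKM summed per gene on a log axis for the 9 members, with 1 point per library (circles for number 2, squares for number 3, blue for distal, orange for proximal), and a dashed line at the 1 FPKM used as the minimum. Both Hhip values of proximal stroma lie above both distal values, whereas both number 2 values lie above both number 3 values for Ptch1, Smo, Gli1, Gli2, Gli3, Gas1 and Boc.

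Across regions, 0 of the 8 tested members passed, where 0% of all tested genes passed. The test was limma with region as the only term and Benjamini-Hochberg adjustment over all tested genes, threshold 0.05. The adjusted p was 0.9999 for each of the 8. At an unadjusted p under 0.05 there were also 0 of 8 members, against 3.16% of all tested genes. With 2 libraries a region, the smallest two-sided p of an exact permutation test is 0.333, so none was run on single genes. A further fit had a term for library number, which the labels do not tie to an animal or a day. In it 465 of all tested genes passed and 0 of the 8 members. The median log2 difference, proximal minus distal, was 0.05 for the members and 0.09 for all tested genes. In bulk libraries such as these, fewer cells that express a gene and less RNA per cell cannot be told apart.

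Ptch1, the ligand receptor, had 12.2 FPKM in distal 2, 6.70 in distal 3, 17.6 in proximal 2 and 9.89 in proximal 3. The regions overlapped, because proximal 3 lay below distal 2, but within each number the proximal library was the higher. The ratio of proximal to distal FPKM was 1.45 within number 2 and 1.48 within number 3. The Ptch1 mean was 13.8 ± 5.48 FPKM for proximal and 9.44 ± 3.88 FPKM for distal libraries (SD, n = 2 each). Its log2 difference was 0.50 ± 0.49 (SE) with region as the only term, which is within the spread between libraries. That spread includes the difference between numbers. With a term for library number the SE was 0.18, and Ptch1 did not pass in that fit either. Leaving out distal 3 lowered it to 0.11 and leaving out distal 2 raised it to 0.89, because such a fit keeps only 1 number in 1 region. The gene lies on the minus strand of chromosome 13 at 63508328 to 63573598 (mm10).

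Hhip, the membrane-anchored protein that sequesters ligand, had 11.7 FPKM in distal 2, 10.03 in distal 3, 14.4 in proximal 2 and 17.7 in proximal 3. It was the 1 member of the 8 tested with both proximal libraries above both distal ones, an arrangement that 13.0% of all tested genes shared. The Hhip mean was 16.1 ± 2.33 FPKM for proximal and 10.9 ± 1.18 FPKM for distal libraries (SD, n = 2 each). On the log2 scale its difference was 0.52 ± 0.36 (SE). Without 1 library the difference ranged from 0.38 to 0.66. The whole signal came from a single transcript of 9078 bases, and the deposited bounds of that estimate ran from 11.3 to 12.1 FPKM in distal 2, 9.66 to 10.4 in distal 3, 13.9 to 14.9 in proximal 2 and 17.2 to 18.2 in proximal 3. These bounds, which cover estimation error within a library only, did not overlap between any pair of libraries. The gene lies on the minus strand of chromosome 8 at 79965851 to 80058006.

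Marker sums of other cells also differed among the libraries. The 8 epithelial markers (Epcam, Cdh1, Krt5, Krt8, Krt14, Krt18, Krt19 and Cldn4) summed to 40.0 FPKM in distal 2, 99.5 in distal 3, 58.6 in proximal 2 and 439 in proximal 3. Hhip was highest in proximal 3 and lowest in distal 3, the libraries with the highest and the next highest epithelial sum. The 5 pericyte markers (Rgs5, Cspg4, Kcnj8, Abcc9 and Pdgfrb) summed to 52.9 FPKM in distal 2, 57.3 in distal 3, 76.1 in proximal 2 and 72.6 in proximal 3. Pdgfrb made up most of this sum, with 33.9, 36.6, 64.3 and 58.4 FPKM in the same order. Cspg4 went the other way, with 15.1 and 17.7 FPKM in the distal and 7.25 and 7.73 FPKM in the proximal libraries. The part of either cell type in the Hhip difference was not tested.

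Smo, the signal transducer that Ptch1 restrains, had 25.3 FPKM in distal 2, 11.2 in distal 3, 25.3 in proximal 2 and 12.2 in proximal 3. The 2 libraries of a number were nearly equal, with proximal to distal ratios of 1.002 and 1.09, and each number 3 library was lower than its number 2 counterpart. The log2 difference between regions was 0.06 ± 0.57 (SE). Its sign turned to -0.49 without distal 3 and to -0.44 without proximal 2. The gene lies on the plus strand of chromosome 6 at 29735503 to 29761365.

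**Figure D2:**
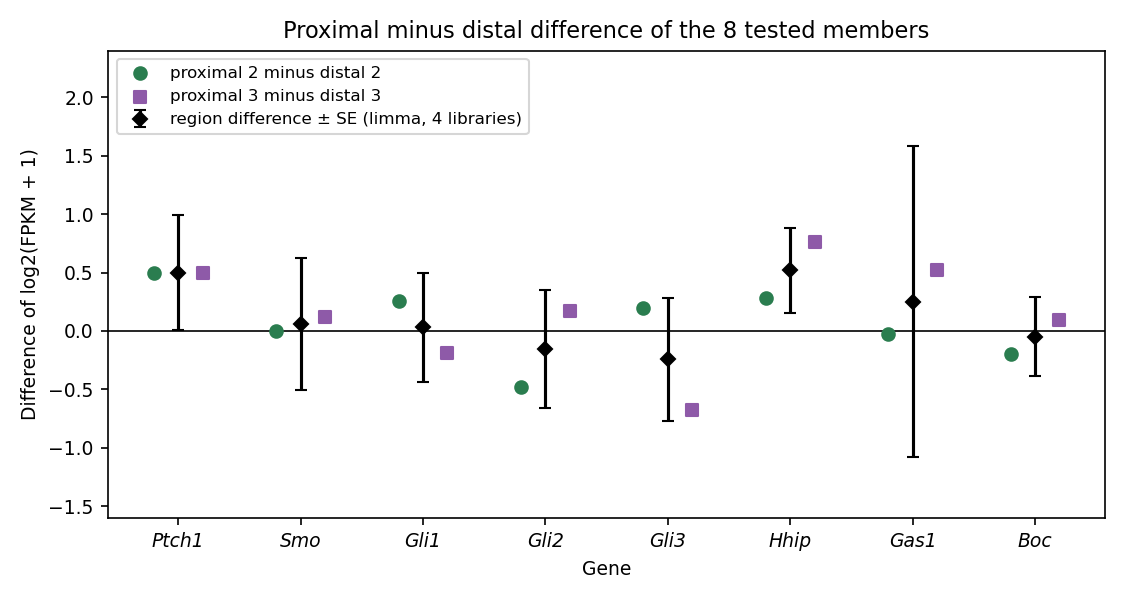
Difference of log2(FPKM + 1), proximal minus distal, for the 8 tested members, with black diamonds and bars for the limma estimate ± SE over 4 libraries, green circles for the pair numbered 2 and purple squares for the pair numbered 3. Ptch1, Hhip and Smo lie above 0 in both pairs, Smo by 0.0029 and 0.12, and the bar of Gas1 is the widest, with an SE of 1.33.

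Among the co-receptors, Gas1, a GPI-anchored protein, gave the highest values of all members in the libraries numbered 2 and the widest spread over the 4 libraries. It had 94.0 FPKM in distal 2, 9.19 in distal 3, 92.6 in proximal 2 and 13.6 in proximal 3. The proximal to distal ratio was 0.985 within number 2, and the proximal value was 1.48 times the distal one within number 3. The libraries numbered 3 held 9.77% of the number 2 value in distal stroma and 14.7% of it in proximal stroma. The region difference of 0.25 ± 1.33 (SE) on the log2 scale carried an error set by this gap. It turned to -1.36 without distal 3 and to -1.09 without proximal 2, and reached 1.86 without distal 2. Gas1 is read here from 1 transcript of 3131 bases at 60174405 to 60177535 on the minus strand of chromosome 13.

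Boc, an immunoglobulin and fibronectin domain protein that binds ligand, was the steadiest of the abundant members. It had 24.8 FPKM in distal 2, 19.95 in distal 3, 21.5 in proximal 2 and 21.4 in proximal 3. The log2 difference was -0.05 ± 0.34 (SE), with both proximal values inside the distal range, and it was 0.10 without distal 2. Its relative Cdon had 0.963 FPKM in distal 2, 0.476 in distal 3, 0.451 in proximal 2 and 0.476 in proximal 3. Cdon did not reach 1 FPKM in any library and was not tested. Boc was 25.7 times Cdon in distal 2, 41.95 times in distal 3, 47.8 times in proximal 2 and 45.0 times in proximal 3, so in all 4 libraries Boc was the dominant transcript of this pair. Gas1 was 3.79 and 4.30 times Boc in distal 2 and proximal 2 but 0.460 and 0.635 times Boc in distal 3 and proximal 3, so which co-receptor led depended on the library number. Boc lies on the minus strand of chromosome 16 at 44485049 to 44558897 and Cdon on the plus strand of chromosome 9 at 35421128 to 35507652.

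Of the zinc finger factors, Gli1, an activator induced by the pathway, was well above Gli2 and Gli3 in every library. Gli1 had 18.0 FPKM in distal 2, 12.6 in distal 3, 21.6 in proximal 2 and 10.9 in proximal 3. Proximal 2 was the highest and proximal 3 the lowest, so the proximal values enclosed the distal ones. The log2 difference was 0.03 ± 0.47 (SE), with 0.25 within number 2 and -0.19 within number 3. It was -0.21 without distal 3 and -0.43 without proximal 2, and it was below 0 under both other scalings. The gene lies on the minus strand of chromosome 10 at 127329882 to 127341974.

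Gli3, which is processed mainly to a repressor, had 4.12 FPKM in distal 2, 3.36 in distal 3, 4.86 in proximal 2 and 1.72 in proximal 3. The low proximal 3 value placed the log2 difference at -0.24 ± 0.53 (SE), and without proximal 3 it was 0.31. Gli2, the main activator of the primary response, had 1.88 FPKM in distal 2, 0.348 in distal 3, 1.06 in proximal 2 and 0.521 in proximal 3. It passed the minimum of 1 FPKM only through distal 2 and proximal 2, with a log2 difference of -0.15 ± 0.50 (SE) that was 0.39 without distal 2 and 0.07 without proximal 3. Gli1 was 4.36, 3.74, 4.44 and 6.31 times Gli3 in distal 2, distal 3, proximal 2 and proximal 3, and between 9.57 and 36.2 times Gli2. The order Gli1, Gli3, Gli2 therefore held in all 4 libraries. The ratio to Gli3 in proximal 3 rests on a Gli3 sum in which 1 short transcript model was listed at 0. Gli3 lies on the plus strand of chromosome 13 at 15463235 to 15730026 and Gli2 on the minus strand of chromosome 1 at 118834132 to 119053619.

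The deposited tables list 29 transcripts for the 9 members, of which 16 were at 0 in all 4 libraries. Gli1, Gli2, Smo, Hhip and Gas1 were each read from 1 transcript above 0, while Ptch1, Gli3, Boc and Cdon were split over 2. For Ptch1 these were a model of 4306 bases at 63511532 to 63565520 and a model of 3676 bases at 63508336 to 63514341, at the 3′ end of the gene on the minus strand. Their spans share 2810 bases, so the summed FPKM adds pieces of the same gene and overstates its level against the other members. Taken alone, the longer model had 5.11 FPKM in distal 2, 2.89 in distal 3, 8.26 in proximal 2 and 3.65 in proximal 3. The 3′ model had 7.07 FPKM in distal 2, 3.81 in distal 3, 9.39 in proximal 2 and 6.24 in proximal 3. Both models were higher in the proximal library of each number.

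The low Gli3 sum of proximal 3 lay mostly in 1 short model. The Gli3 transcript of 8426 bases had 2.17 FPKM in distal 2, 1.86 in distal 3, 2.75 in proximal 2 and 1.72 in proximal 3. A model of 2027 bases stood at 1.95, 1.497 and 2.12 FPKM in distal 2, distal 3 and proximal 2 and was listed at 0 in proximal 3. From the longer transcript alone the log2 difference was 0.09, the opposite sign of the summed value. Boc was split between models of 4425 and 4428 bases that differ by 3 bases in length, so their separate values are uncertain. The 4425-base model held between 63.2% (distal 3) and 79.4% (proximal 2) of the Boc sum. With that model alone the Boc difference was 0.03. For Cdon, a model of 1691 bases held 44.0% of the sum in distal 2 and 35.5% in proximal 2 and was listed at 0 in both libraries numbered 3. Exact zeros in such estimates can be failed divisions of shared fragments and need not mean absence.

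**Figure D3:**
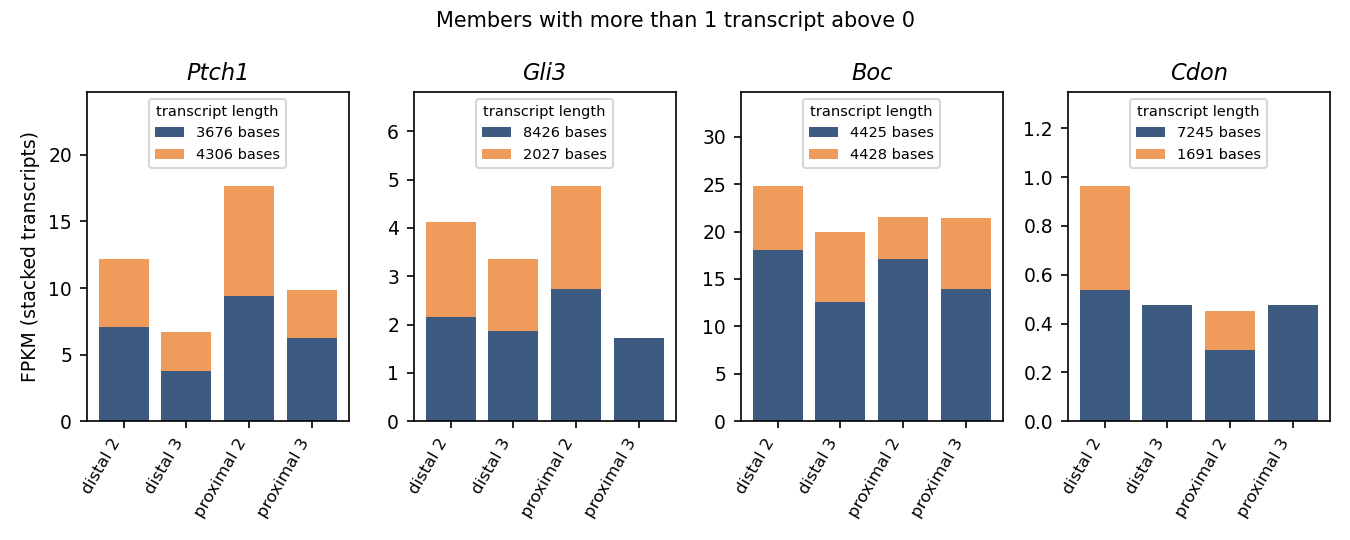
FPKM of the transcripts above 0 for Ptch1, Gli3, Boc and Cdon, stacked per library, with each transcript labelled by its length in bases and a separate linear axis from 0 in each panel. The 2027-base model of Gli3 is missing from proximal 3, and the 1691-base model of Cdon from both libraries numbered 3.

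For every tested member except Hhip, the difference between library numbers was larger than the difference between regions. Of the 8 tested members, 7 were lower in number 3 than in number 2 in both regions, all but Hhip, where 59.1% of all tested genes were. The mean log2 difference of number 3 minus number 2 was -2.95 for Gas1, -1.05 for Smo, -0.78 for Ptch1, -0.77 for Gli2, -0.70 for Gli1, -0.67 for Gli3, -0.15 for Boc and 0.04 for Hhip, against a median of -0.33 over all tested genes. Only 39 of 11271 genes had a larger fall in number 3 than Gas1. All 8 epithelial markers were higher in number 3 in both regions, with a median log2 difference of 1.11 in distal and 2.72 in proximal stroma. The part of epithelial RNA in the members' number difference was not tested. By comparison, a higher proximal value within both numbers was seen for 3 of the 8 members (Ptch1, Hhip and Smo) and for 43.0% of all tested genes, and a lower one for 0 of 8 and for 24.0%.

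GC content moved with the number difference and with the region difference. All tested genes were split into 5 groups of equal size by the GC content of the longest annotated transcript. The median of number 3 minus number 2 was -0.19 in the group with the lowest GC content and -0.55 in the group with the highest. The median of proximal minus distal rose from group to group, from 0.03 in the lowest to 0.16 in the highest. Gas1 (58.4% GC), Smo (57.8%), Gli1 (59.0%), Gli2 (57.5%) and Boc (55.9%) were in the highest group, Gli3 (48.4%) in the middle one, Ptch1 (47.8%) in the next to lowest and Hhip (41.2%) in the lowest. In the highest group the number differences were -2.95 for Gas1, -1.05 for Smo, -0.77 for Gli2, -0.70 for Gli1 and -0.15 for Boc. The part of GC content in the number and region differences was not tested.

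**Figure D4:**
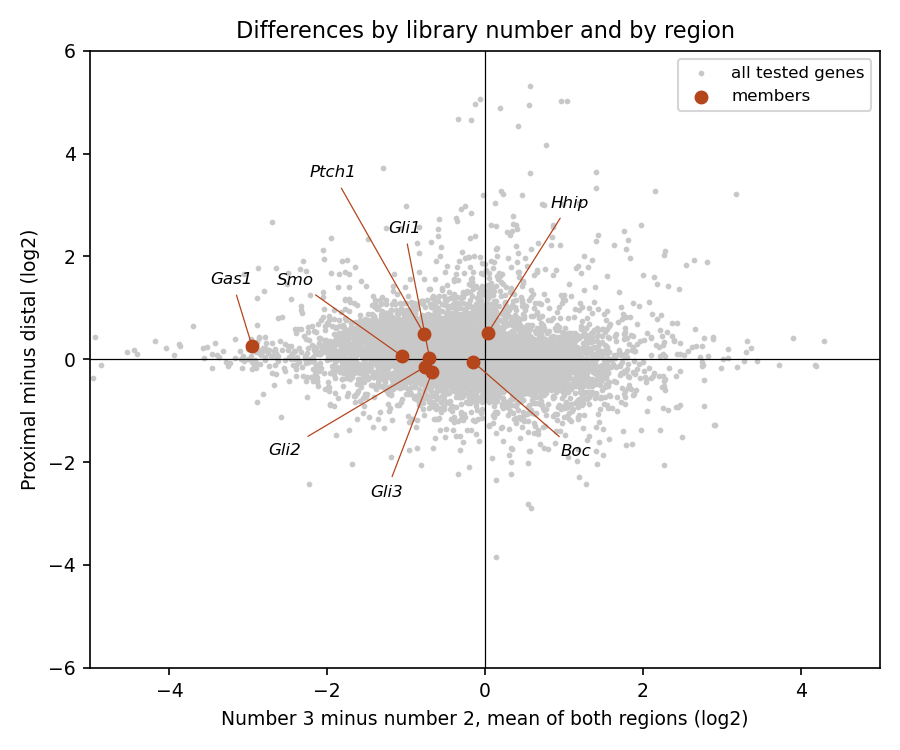
Each point is a tested gene, with the difference of number 3 minus number 2 (mean of both regions) on the horizontal axis and proximal minus distal on the vertical axis, both on the log2(FPKM + 1) scale; 2 genes lie outside the axes. Gas1 sits at -2.95 on the horizontal axis and 0.25 on the vertical one, and no member exceeds 0.52 on the vertical axis.

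The ligands were close to 0 in this sorted stroma. Sonic hedgehog (Shh) had 0.0797 FPKM in distal 2, 0.0119 in distal 3, 0.0579 in proximal 2 and 0.0280 in proximal 3. Indian hedgehog (Ihh) had 0.161 FPKM in distal 2, 0.236 in distal 3, 0.414 in proximal 2 and 0.584 in proximal 3, with both proximal values above both distal ones. Desert hedgehog (Dhh) had 0.0151 FPKM in distal 2, 0.135 in distal 3, 0.0330 in proximal 2 and 0.0477 in proximal 3. None of the 3 reached 1 FPKM in any library, so none was tested. The epithelial marker sum was 40.0 FPKM in distal 2, 99.5 in distal 3, 58.6 in proximal 2 and 439 in proximal 3. Ihh was highest in proximal 3, Shh in distal 2 and Dhh in distal 3. The part of epithelial RNA in the ligand values was not tested.

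Of 41 further Hedgehog genes, 34 were tested and 0 passed (limma, region as the only term), where 0% of all tested genes passed. In the fit with a term for library number, 3 of the 34 passed, as did 465 of all 11271 tested genes. At an unadjusted p under 0.05 there were 2 of 34, against 3.16% of all tested genes. Their median log2 difference was 0.11, beside 0.09 for all tested genes. Both proximal libraries lay above both distal ones for 7 of the 34, against 13.0% of all tested genes, and below them for 2 of the 34, against 8.64%. These genes too were chosen with earlier results of these data known. The sections of the pathway are given in turn.

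Among 5 tested genes of ligand processing, release and uptake, 2 had higher and 3 had lower proximal values, with a median of -0.14. Scube1, of a family of secreted proteins that help release lipid-modified ligand, had 0.876 FPKM in distal 2, 1.28 in distal 3 and 2.96 in both proximal libraries. This separated the regions, with a log2 difference of 0.94 ± 0.39 (SE). Gpc3, a glypican that competes with Ptch1 for ligand, had 14.2 FPKM in distal 2, 21.9 in distal 3, 9.63 in proximal 2 and 8.40 in proximal 3, a log2 difference of -0.90 ± 0.40 (SE). Gpc3 was thus lower in both proximal libraries than in either distal one. Hhat, the acyltransferase that palmitoylates the ligands, gave -0.17 ± 0.59 (SE), and 0.39 without proximal 3 or 0.27 without distal 2.

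Signal transduction genes downstream of Smo gave the median nearest to 0 of these lists, 0.04 over 14 tested genes, 8 with higher and 6 with lower proximal values. None of these 14 separated the regions in either direction. Over all tested genes, both proximal libraries lay above both distal ones in 13.0% and below them in 8.64%. The kinase-family gene Stk36 was too low to be tested. It separated the regions, with 0.373 FPKM in distal 2, 0.408 in distal 3, 1.02 in proximal 2 and 0.975 in proximal 3. Scube3 and Foxl1 of other lists, also untested, did so too, at no more than 0.109 FPKM. Casein kinase 1 alpha (Csnk1a1), which phosphorylates Gli proteins, gave -0.46 ± 0.36 (SE), the ubiquitin ligase subunit Btrc 0.35 ± 0.61 and the protein kinase A subunit Prkacb 0.29 ± 0.45. Csnk1a1 was -0.16 without proximal 2, -0.30 without distal 3 and -0.76 without proximal 3. Btrc was -0.20 without distal 3 and -0.18 without proximal 2, and Prkacb was -0.13 without proximal 2. As with Smo, 12 of these 14 genes were lower in number 3 than in number 2 in both regions, where 59.1% of all tested genes were.

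Primary cilium genes had a median of 0.23 over 6 tested genes. Ift172, a subunit of the intraflagellar transport complex, had 4.34 FPKM in distal 2, 5.24 in distal 3, 8.56 in proximal 2 and 7.81 in proximal 3, a log2 difference of 0.67 ± 0.39 (SE). The cytoplasmic dynein heavy chain Dync2h1 gave 0.43 ± 0.43 (SE) and the ciliary GTPase Arl13b -0.33 ± 0.38 (SE). The Arl13b difference came from proximal 2, at 14.4 FPKM, while the other libraries lay between 21.4 and 23.9 FPKM, and it was -0.03 without proximal 2 and -0.62 without proximal 3. Dync2h1 was 0.16 without distal 3, 0.27 without proximal 2 and 0.71 without distal 2.

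Response genes other than the members had a median of 0.56 over 9 tested genes, 8 with higher and 1 with lower proximal values, where 60.4% of all tested genes had higher ones. Both proximal libraries lay above both distal ones for 5 of the 9 (Foxf1, Foxf2, Bmp4, Mycn and Igfbp6), against 13.0% of all tested genes, and below them for Ccnd2, against 8.64%. The list was chosen with earlier results of these data known, so these shares are a description and no independent support. The forkhead factor Foxf1 differed by 1.83 within number 2 and by 1.95 within number 3 on the log2 scale (limma adjusted p = 0.672 with region as the only term), its relative Foxf2 by 2.09 and 1.03 (adjusted p = 0.9999) and the ligand Bmp4 by 0.97 and 0.91 (adjusted p = 0.9999). The Foxf2 difference of 1.56 was 0.82 without proximal 2. In the fit with a term for library number, Foxf1, Foxf2 and Bmp4 passed. The labels do not tie that number to an animal or a day. Among the members, the same pairs gave 0.50 and 0.50 for Ptch1, 0.28 and 0.76 for Hhip and 0.25 and -0.19 for Gli1. Whether Foxf1 and Bmp4 differ more between regions than Ptch1 or Gli1 was not tested, and these genes also answer to other signals.

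**Figure D5:**
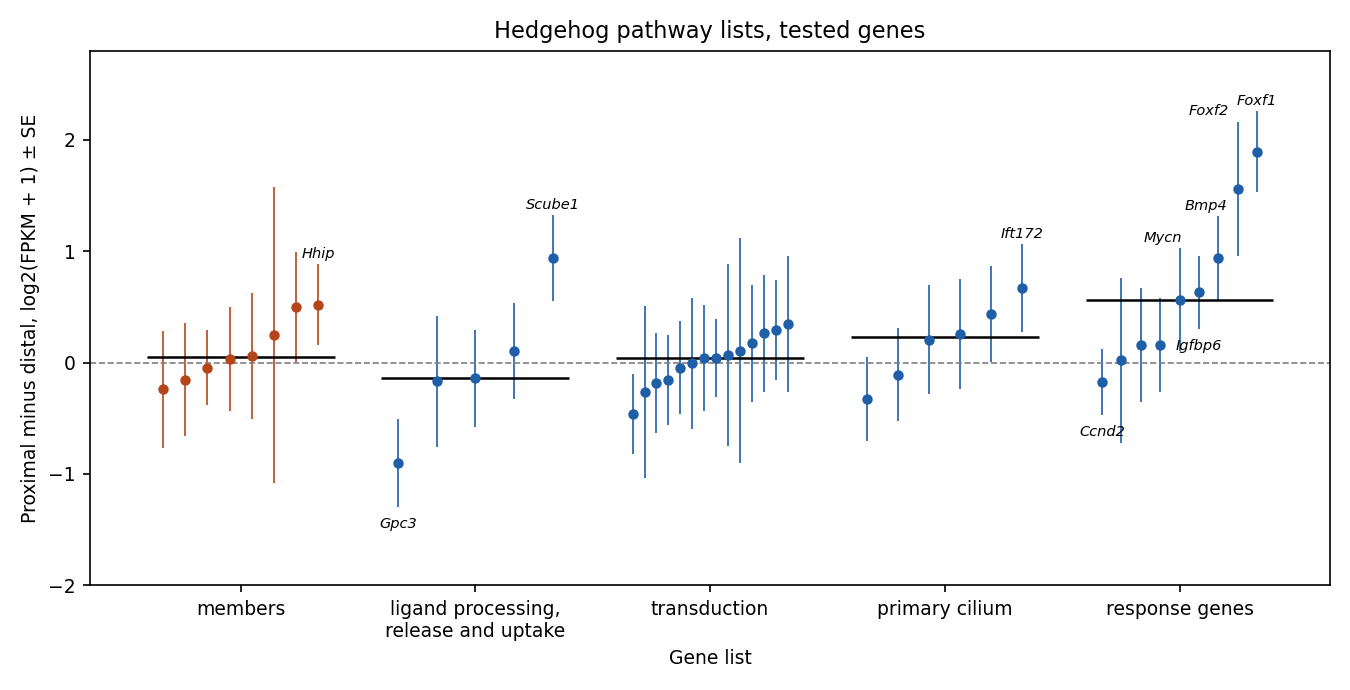
Log2 difference, proximal minus distal, with its SE for each tested gene of 5 Hedgehog lists, ordered by value within a list, with a black line at the list median. Genes whose proximal and distal libraries do not overlap are named; the response genes have the highest median, 0.56, and the transduction genes and members lie near 0.

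The sort and the cell type labels were checked against marker genes. Ly6a, which encodes Sca-1, lay between 687 and 1016 FPKM, and the CD49f gene Itga6 reached at most 1.34 FPKM. Cd24a, which encodes CD24, lay between 8.06 and 54.6 FPKM, highest in proximal 3, so RNA of a marker used to remove cells was present. The 9 fibroblast markers, Pdgfra and the collagens among them, summed to 4476 to 6106 FPKM over the libraries. Dcn made up the largest part, with 2353 FPKM in distal 3 and 3671 in proximal 3. The sum was highest in proximal 3, as were Dcn, Dpt and Vim. Pdgfra, Col1a1, Col1a2 and Pi16 were lowest there. Smooth muscle markers summed to 389 FPKM in distal 2, 270 in distal 3, 354 in proximal 2 and 191 in proximal 3. The sum was lower in number 3 in both regions, as were 7 of the 8 tested members. Of the 7 smooth muscle markers, 5 were lower in number 3 in both regions, where 59.1% of all tested genes were. Smtn was higher in distal 3 than in distal 2, and Cnn1 higher in proximal 3 than in proximal 2. The part of smooth muscle RNA in the number difference of the members was not tested. Endothelial markers summed to at most 9.45 FPKM, leukocyte markers to at most 3.11 FPKM with Cd3e at 0 in all libraries, and Schwann cell and neuron markers to at most 4.04 FPKM.

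Over 4 libraries a shared profile is easily met. Compared by the root mean square distance between log2 values centred on each gene's mean, the genes nearest to Ptch1 were Drap1 (0.017), Lcmt1 (0.019) and Mrpl51 (0.020), those nearest to Gli1 were Mrpl3 (0.021), Idnk (0.023) and Cped1 (0.026), and those nearest to Hhip were Vit (0.023), Lrrc42 (0.027) and Ndufa4 (0.036). Of 7428 genes with a mean of at least 5 FPKM, 440 lay within 0.15 of Ptch1, 503 within 0.15 of Gli1 and 150 within 0.15 of Hhip.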

How the data were processed

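RNA of 4 samples of sorted mouse prostate stroma was sequenced after SMART-Seq v4 amplification with random and oligo-dT primers, per the labels' protocols, a kit that does not mark strand. Cufflinks 0.0.6, TopHat2 0.6 and bcl2fastq 1.8.3 are named, with the mm10 build, per the submitters' processing notes. The authors deposited FPKM per transcript with lower and upper bounds and a coverage signal, per the file headers. The libraries' total fragments are unknown. Their median ratio of deposited coverage to FPKM was 5.22 to 6.34, and 10154 to 11463 genes reached 1 FPKM.

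Gene names came from GENCODE M21 positions (same assembly), matched by span and length (score at least 0.8, no rival within 0.8 of it), else by exon ends within 100 bp, else by an overlap of at least 0.5 with rivals under 0.25. This named 55612 of 63241 transcripts, and FPKM was summed per gene. The 7 genes with a failed or capped estimate were left out. Genes at 1 FPKM in at least 2 libraries were tested as log2(FPKM + 1) with limma 3.58.1 (R 4.3.3, region as the only term, trended empirical Bayes, two-sided), which understates the change of low genes. Plots used matplotlib 3.10.9, and tables pandas 2.3.3 with numpy 2.4.6, in Python 3.11.15.

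Members and gene lists were chosen with earlier results of these data known. The text names the members, the ligands, the 3 largest differences of each other list, the nearest profiles of Ptch1, Gli1 and Hhip and the sort genes. The rule takes in 1 further gene that is not reported here. Other genes, including Igfbp6, Mycn, Ccnd2 and Stk36, were named after their values were seen. Alternatives were other pseudocounts, filters, scalings and naming, the most abundant transcript alone, a block on library number and leaving out each library.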

Additional observations from a re-analysis of the deposited data

How the results depend on the processing

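The count of members that passed was 0 in every alternative run. For the 20 tested genes named, 227 of 250 alternative values kept their direction and side of the threshold, 20 changed sign (in 9 genes) and 3 passed where the reported value did not. With the replicate block, a term for library number, 465 of all tested genes passed instead of 0, none of them members, and 3 other Hedgehog genes did, Foxf1 (adjusted p = 0.00290, limma), Foxf2 (adjusted p = 0.0304) and Bmp4 (adjusted p = 0.0363). The labels do not tie a number to an animal or a day. Same-numbered libraries deviated together across genes (r = 0.815), which with 2 pairs is a hint from the data, not the design. Quantile normalization moved the median of all genes by -0.12 and median ratio scaling by -0.11 on the log2 scale. The members' median was 0.0050 under the first and -0.075 under the second, Gli1 was -0.0046 and -0.090 and Smo -0.059 under the second. The members' median was 0.15 with a minimum of 5 FPKM, which left 6 members. With the most abundant transcript alone, Boc was 0.031 and Gli3 0.086. Without 1 library, which mixes region with number, all genes that passed ranged from 0 to 40 (40 without distal 2, 26 without distal 3), and the members' median from -0.40 (without proximal 2) to 0.50 (without distal 2), with -0.28 without distal 3 and 0.44 without proximal 3. Over the same 4 fits Gas1 ranged from -1.36 to 1.86, Smo from -0.49 to 0.62, Gli1 from -0.43 to 0.49, Gli2 from -0.70 to 0.39, Gli3 from -0.79 to 0.31, Boc from -0.20 to 0.10, Btrc from -0.20 to 0.89, Hhat from -0.73 to 0.39 and Prkacb from -0.13 to 0.71. Apart from the fits with fewer libraries or genes, the cause was not tested. Unknown total fragments give no floor in fragments for the ligands, Cdon and Gli2. The deposited bounds of Gli2 in distal 3, its lowest library, were 0.266 to 0.429 FPKM.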
